A study of Mus musculus with 6 samples.

Results

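The histone H3K4 demethylases are the 5 genes Kdm1a, Kdm1b, Kdm5a, Kdm5b and Kdm5c, taken by gene symbol from 38926 genes in the count lists. The Y-linked Kdm5d was left out by the choice of members. All 5 were found and all 5 passed the filter on low counts, with 132 to 6904 counts per sample. RNA of hematopoietic stem cells (HSCs), the blood-forming stem cells, was sequenced from mouse fetal liver at E14.5 (embryonic day). The 3 control samples carried Vav-Cre and Dpy30F/+, and the 3 knockout samples carried Vav-Cre and Dpy30F/-, with 1 sample of each genotype from each of 3 litters. Vav-Cre is a Cre recombinase driven in blood cells by Vav regulatory sequences. Both genotypes thus carried Cre and 1 floxed Dpy30 allele, and the controls were heterozygous where Cre had acted rather than wild type. The cells were sorted by HSC surface markers that the labels do not name, and the labels do not say how many embryos gave each sample.

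Methyl groups on lysine 4 of histone H3 are placed by the SET1/MLL complexes, of which DPY30 is a core subunit, and are taken off by 2 classes of enzyme. KDM1A (LSD1) and KDM1B (LSD2) are flavin-dependent amine oxidases that act on mono- and dimethylated lysine. KDM5A, KDM5B and KDM5C belong to the JARID1 family of JmjC dioxygenases, which need iron and 2-oxoglutarate and act on di- and trimethylated lysine. In blood formation KDM1A is known for working with the CoREST corepressor and the transcription factors GFI1 and GFI1B. The comparison asks whether the transcripts of the enzymes that remove the mark were at another level in HSCs of the Dpy30 knockout genotype.

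Trimethylated H3K4 is found mainly at CpG-rich promoters, and the sequences upstream of the start sites of 2 members are given here to show that feature. Kdm1a had the narrowest spread of the members among knockout samples, and Kdm5b the widest. Both stretches come from RefSeq on GRCm38.p6, end just before the first transcribed base of the gene model, and are written 5′ to 3′ along the gene's strand, with CpG dinucleotides in capitals. The Kdm1a stretch lies on the minus strand at chr4:136602724-136602973 and the Kdm5b stretch on the plus strand at chr1:134559928-134560170.
Kdm1a: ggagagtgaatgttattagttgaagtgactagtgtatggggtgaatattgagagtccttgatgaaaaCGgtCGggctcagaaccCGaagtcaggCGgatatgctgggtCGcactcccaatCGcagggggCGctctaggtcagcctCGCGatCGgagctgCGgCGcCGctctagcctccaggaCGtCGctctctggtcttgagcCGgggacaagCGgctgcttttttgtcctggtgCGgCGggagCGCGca
Kdm5b: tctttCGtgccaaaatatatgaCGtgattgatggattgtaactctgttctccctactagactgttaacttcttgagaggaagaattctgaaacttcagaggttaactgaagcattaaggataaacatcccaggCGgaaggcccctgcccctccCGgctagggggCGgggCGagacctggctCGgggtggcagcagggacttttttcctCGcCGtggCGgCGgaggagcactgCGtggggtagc
The Kdm1a stretch held 21 CpG in 250 bases and the Kdm5b stretch 12 in 243 bases. Over the full 250 bases before the RefSeq start, the counts were 21 for Kdm1a, 22 for Kdm1b, 13 for Kdm5b and 10 for Kdm5c. The median over 32851 promoters of that length was 6, and the 4 members had more CpG than 83.7%, 85.2%, 68.5% and 62.2% of them. Of the 250 bases taken for Kdm5c, 43, holding 4 CpG, lie before the gene model, and the rest lie inside it. Kdm5a was not matched in the promoter table. The letters TATAAA, searched on both strands, were in 0 of the 4 members' stretches and in 12.4% of all promoters. CCAAT, on both strands, was found 1 time each for Kdm1a and Kdm5c, and in 33.8% of all promoters. GGGCGG, on both strands, was found 6 times for Kdm1b and 1 time for Kdm5b, and in 32.7% of all promoters.

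Gene counts summed to 31897737 to 43394700 per sample. Once mitochondrial genes and the 10 most counted features were set aside, they ranged from 11.4 × 1000000 in control 1 to 17.5 × 1000000 in control 3. Mitochondrial genes took 67.7% of gene counts in control 1 and 49.2% to 57.3% in the other 5 samples. All 13 HSC markers looked for were detected. Their summed level was 769 to 828 CPM (counts per 1000000, with library totals adjusted by factors from the trimmed mean of M values) in controls and 333 to 1116 CPM in knockouts, lowest in knockout 3. Knockout 3 also had the highest summed markers of macrophages (1677 CPM, against 338 to 828 in the other 5 samples), granulocytes (403 against 59.5 to 148) and erythroid cells (2769 against 939 to 2078). The filter on low counts kept 9 of 11 macrophage, 6 of 10 granulocyte, 2 of 6 mast cell and 6 of 9 hepatocyte markers found. A marker high in knockouts alone could pass it, so counts over the kept markers can lean to the knockouts. Of 9 macrophage markers tested, 4 were higher in every knockout than in any control, as were 1 of 13 HSC, 1 of 6 granulocyte, 1 of 2 mast cell and 2 of 6 megakaryocyte markers and 6.39% of all genes. Lower in every knockout were 1 of 6 megakaryocyte and 1 of 6 hepatocyte markers, against 7.74% of all genes. Summed markers of hepatocytes (5.59 to 25.7 CPM), lymphoid cells (at most 7.03 CPM, with Cd3e and Cd3g at 0 counts) and mast cells (at most 17.9 CPM) were low in all samples, and those of megakaryocytes ranged from 105 to 198 CPM. In all that follows, ± gives the SD over the 3 samples of a genotype (n = 3). The targeted gene Dpy30 stood at 26.8 ± 4.20 CPM in controls and 9.18 ± 3.999 in knockouts. Its log2 change was -1.55 (SE 0.46, edgeR quasi-likelihood adjusted p = 0.672), and all 3 knockouts lay below the lowest control. DESeq2 gave an adjusted p of 0.042 for it. Dpy30 RNA was still counted in every knockout, at 7.93, 5.95 and 13.7 CPM in knockouts 1 to 3. The data are RNA counts and hold no level of the DPY30 protein.

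None of the 5 demethylases changed past the threshold between genotypes, and none separated the samples by genotype. With edgeR's quasi-likelihood test 0 of 5 had an adjusted p under 0.05, where 0% of the 13646 genes tested were called, and 0 of 5 had an unadjusted p under 0.05, against 6.51% of all genes. DESeq2 also called 0 of 5, against 1.9% of the 14327 genes left by its own filter. The groups overlapped for all 5 members, while 14.1% of all genes had groups that did not overlap. The median log2 fold change, knockout over control, was 0.11 for the 5 members and 0.01 for all genes. Log2 fold changes were above 0 for 4 members and below 0 for Kdm5b, and no member was higher, or lower, in the knockout in all 3 litters. A bulk level falls in the same way when fewer cells of a type are present and when each cell holds less of the RNA, and these cannot be told apart here.

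**Figure D1:**
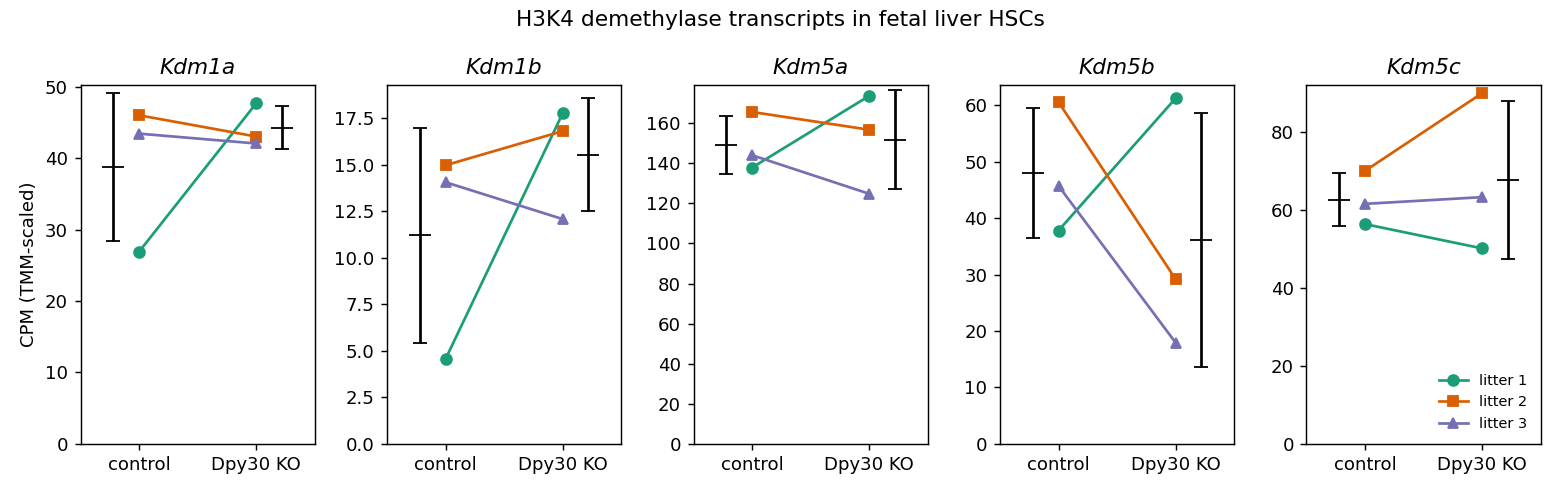
Level of each member in CPM (vertical axes start at 0 and differ between panels) in control and Dpy30 knockout samples. Lines join the 2 samples of a litter, and black bars are the mean ± SD of 3 samples. The genotypes overlap in all 5 panels. For Kdm5b the lines of litters 2 and 3 go down and that of litter 1 goes up.

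Kdm1a (ENSMUSG00000036940.15; chromosome 4, 136550540 to 136602723, minus strand, GRCm38) stood at 26.9, 46.1 and 43.5 CPM in controls 1 to 3 and at 47.7, 43.1 and 42.1 CPM in knockouts 1 to 3. Control 1 was low, and the other 5 samples lay close together whatever their genotype. The means were 38.8 ± 10.4 CPM in controls and 44.3 ± 3.01 in knockouts, with a log2 fold change of 0.19 (SE 0.31, edgeR adjusted p = 0.952). The 95% interval of that change ran from -0.52 to 0.90, or from 0.698-fold to 1.87-fold. Without control 1, the library with the largest mitochondrial share, the log2 fold change was -0.01.

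Kdm1b (ENSMUSG00000038080.17; chromosome 13, 47043499 to 47085279, plus strand) was measured at 4.56, 14.98 and 14.1 CPM in controls 1 to 3 and at 17.8, 16.8 and 12.1 CPM in knockouts 1 to 3. Control 1 was again far below the rest, resting on 132 counts. The log2 fold change of 0.47 (SE 0.57, edgeR adjusted p = 0.926) had the widest interval of the 5 members, from -0.84 to 1.79. Without control 1 it fell to 0.10. The gene model shares 498 exonic bases with Dek on the opposite strand, and reads in that stretch would be tallied as ambiguous unless strand was used in counting, which the sources used here do not give.

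Kdm5a (ENSMUSG00000030180.15; chromosome 6, 120364124 to 120444574, plus strand), also known as RBP2 for its binding to the retinoblastoma protein, had most counts of the members. It stood at 138, 166 and 144 CPM in controls 1 to 3 and at 174, 157 and 125 CPM in knockouts 1 to 3. The lowest and the highest of the 6 samples were both knockouts. The means were 149 ± 14.6 and 152 ± 24.8 CPM, with a log2 fold change of 0.02 (SE 0.22, edgeR adjusted p = 0.993). Its 95% interval, from -0.47 to 0.52, was the narrowest of the 5 and leaves out changes beyond 0.72-fold and 1.44-fold. The SD of its log2 CPM over all 6 samples was 0.18, where the median gene had 0.83, and 1.55% of genes tested had a smaller one.

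Kdm5b (ENSMUSG00000042207.17; chromosome 1, 134560171 to 134635285, plus strand), also known as PLU-1, differed in opposite directions between litters. The 3 control samples, in order of litter, had 37.8, 60.6 and 45.7 CPM, and the 3 knockouts had 61.3, 29.2 and 17.9 CPM. Knockouts 2 and 3 lay below every control, and knockout 1 lay above every control. Within litters the knockout was 1.62-fold the control in litter 1, 0.482-fold in litter 2 and 0.392-fold in litter 3. The means were 48.0 ± 11.6 and 36.1 ± 22.5 CPM. edgeR put the log2 fold change at -0.41 (SE 0.47, 95% interval -1.48 to 0.66, edgeR adjusted p = 0.92). Without knockout 1 it was -1.02 (edgeR adjusted p = 0.375, unadjusted p = 0.0379), and without knockout 3 it was -0.07, so the estimate rests on single knockout libraries.

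Among knockouts the SD of the log2 CPM of Kdm5b was 0.89, equal to the median over all genes tested, and in controls it was 0.34 against a median of 0.49. Knockout 3, with the lowest Kdm5b, also had the lowest summed HSC markers and the highest macrophage, granulocyte and erythroid markers. Knockout 2, with the next lowest Kdm5b, had 1116 CPM of HSC markers, the highest of the 6 samples, and 338 CPM of macrophage markers, the lowest. It also had 180 CPM of endothelial markers, against 1157 to 1809 CPM in the other 5 samples. Knockouts 2 and 3 also had the fewest genes with any count, 14674 and 13972, against 16149 to 17241 in the other samples. The part of these cell type markers, or of the number of genes detected, in the level of Kdm5b was not tested.

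**Figure D2:**
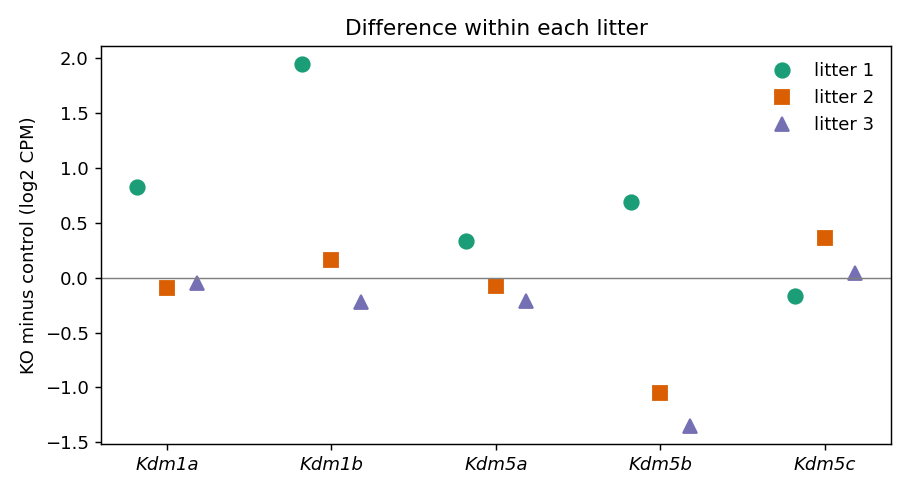
Difference of log2 CPM, knockout minus control, within each of 3 litters for the 5 members; each point is 1 litter and the line marks no difference. Kdm5b is at 0.70, -1.05 and -1.35 in litters 1 to 3. Litter 1 holds the largest rise of every member except Kdm5c.

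Kdm5c (ENSMUSG00000025332.14; chromosome X, 152233020 to 152274535, plus strand), known for escaping X inactivation in part, stood at 56.3, 69.96 and 61.5 CPM in controls 1 to 3 and at 50.1, 89.9 and 63.2 CPM in knockouts 1 to 3. The controls lay within a 1.24-fold range, and knockouts 1 and 2 were the lowest and the highest of all 6 samples. Between genotypes the log2 fold change came to 0.11 (SE 0.29, 95% interval -0.54 to 0.77, edgeR adjusted p = 0.969). Without knockout 2 it was -0.14.

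Sex of the embryos is not in the labels, and Kdm5c is X-linked, so sex-linked transcripts were set beside it. Xist, the RNA that coats the inactive X chromosome, stood at 497, 488 and 182 CPM in controls 1 to 3 and 64.6, 126 and 163 CPM in knockouts 1 to 3. Its log2 change between genotypes was -1.72 (SE 0.46; edgeR, adjusted p = 0.629, unadjusted p = 0.00578). The summed Y-linked genes Ddx3y, Eif2s3y and Uty had 33.8, 13.8 and 52.5 CPM in controls 1 to 3 and 70.4, 37.9 and 40.4 CPM in knockouts 1 to 3. Among them Uty had a log2 fold change of 0.99 and Eif2s3y of 0.86 (edgeR adjusted p = 0.844 and 0.904). Ddx3y had 8.05, 5.19 and 25.0 CPM in controls 1 to 3 and 16.1, 7.74 and 6.85 CPM in knockouts 1 to 3. Of 4 sex-linked markers tested, Xist among them, 2 had log2 fold changes above 0 and 2 below. RNA from both sex chromosomes was thus present in every library. Kdm5d, the Y-linked relative, had 2.83, 10.6 and 19.7 CPM in controls and 21.6, 22.9 and 3.51 CPM in knockouts. Xist was lower in every knockout than in any control, as were 7.74% of all genes, whereas Kdm5c overlapped between genotypes. The part of embryo sex in the level of Kdm5c was not tested.

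Of the 5 X-linked genes with a Y-linked partner on the list, other than Kdm5c, 0 had an adjusted or unadjusted p under 0.05 in edgeR, and DESeq2 called 0. Over all genes the unadjusted share in edgeR was 6.51%, and DESeq2 called 1.9%. The RNA helicase gene Ddx3x was lower in every knockout than in any control, as were 7.74% of all genes. It had 456 ± 75.2 against 343 ± 12.6 CPM (log2 fold change -0.41, edgeR adjusted p = 0.775). Kdm6a, which encodes an H3K27 demethylase, had 68.1 ± 5.41 against 100.5 ± 25.4 CPM (log2 fold change 0.56, edgeR adjusted p = 0.775). Usp9x, a deubiquitinase gene, had 219.8 ± 19.97 against 259 ± 24.9 CPM (log2 fold change 0.23, edgeR adjusted p = 0.88). The median log2 fold change of the list was -0.33, beside 0.11 for Kdm5c.

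**Figure D3:**
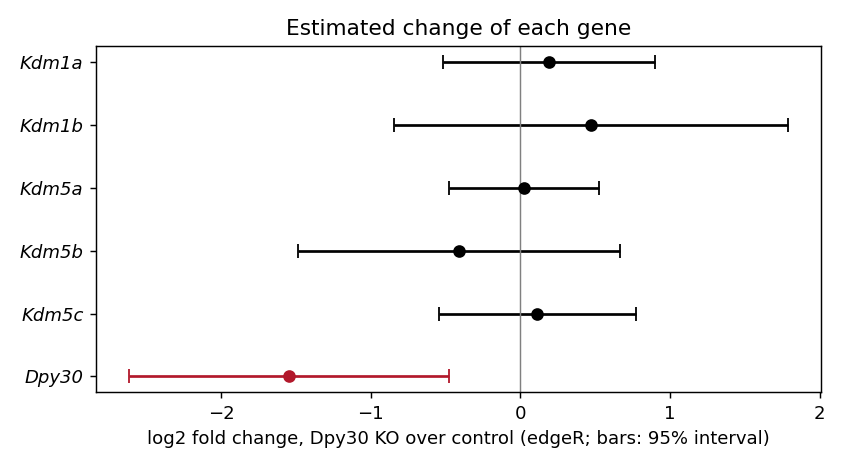
Log2 fold change of each member and of Dpy30 (red), knockout over control, from edgeR's quasi-likelihood fit; points are estimates and bars 95% intervals. The bars of all 5 members cross 0, and that of Dpy30 runs from -2.61 to -0.48.

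Levels can be compared between genes once divided by transcript length, here as CPM per kilobase of exon (CPM per kb) of the GENCODE M21 gene models. Kdm5a, at 13.6 ± 1.33 CPM per kb in controls and 13.9 ± 2.27 in knockouts, and Kdm1a, at 12.7 ± 3.38 and 14.4 ± 0.981, stood highest. The 2 genes differed by less than their spread, and Kdm1a was the higher of them in control 3 and knockout 3. Kdm5c followed with 9.39 ± 1.03 and 10.2 ± 3.04 CPM per kb and was in the third place in all 6 samples. Kdm5b had 5.22 ± 1.26 and 3.93 ± 2.44 CPM per kb, and Kdm1b had 2.25 ± 1.16 and 3.12 ± 0.61. Kdm1b was the lowest in the 3 controls and in knockout 1, and Kdm5b was the lowest in knockouts 2 and 3, where the neighbours in the order changed places.

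The KDM5 transcripts together came to 25.2, 32.2 and 27.4 CPM per kb in controls 1 to 3 and to 30.05, 31.0 and 22.8 CPM per kb in knockouts 1 to 3. The means of 28.25 ± 3.61 and 27.96 ± 4.46 did not differ beyond the spread (permutation test, exact two-sided p = 1). Here 3 samples against 3 cannot give a p below 0.1. The KDM1 transcripts summed to 9.69, 18.01 and 16.99 CPM per kb in the controls of litters 1 to 3, and their littermate knockouts had 19.1, 17.4 and 16.1 (permutation test, exact p = 0.5). Kdm5b made up 16.3%, 20.4% and 18.2% of the KDM5 level in the controls of litters 1 to 3, and 22.2%, 10.2% and 8.54% in the knockouts of those litters (permutation test, exact p = 0.4). In knockouts 2 and 3 the share of Kdm5c was larger instead, at 43.5% and 41.5%, against 32.6% to 33.7% in controls and 25.01% in knockout 1. Kdm5a kept between 46.2% and 52.8% in all 6 samples. Within the KDM1 pair, Kdm1b made up 9.43% in control 1 and 15.01% to 19.4% in the other 5 samples.

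**Figure D4:**
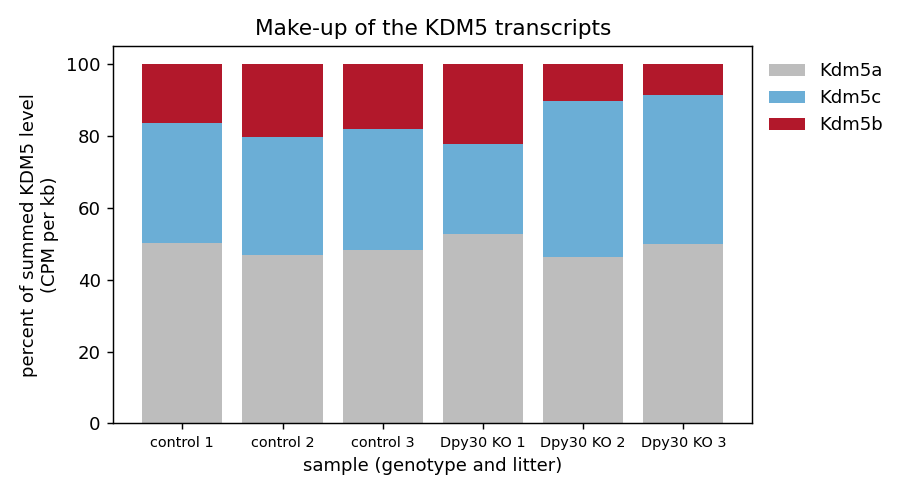
Percent of the summed KDM5 level (CPM per kb) from Kdm5a, Kdm5c and Kdm5b in each sample, as stacked bars. The Kdm5b part is 16.3% to 20.4% in controls, 22.2% in knockout 1, and 10.2% and 8.54% in knockouts 2 and 3.

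Ratios within a sample do not depend on its scaling, and 4 were computed between members on the log2 scale. The ratio of Kdm5b to Kdm5a was -1.41 ± 0.21 in controls and -1.99 ± 0.67 in knockouts, and that of Kdm5b to Kdm5c was -0.87 ± 0.18 and -1.51 ± 1.16 (permutation test, exact p = 0.3 and 0.4, both 0.533 with Benjamini-Hochberg adjustment over the 4 ratios). Kdm5c to Kdm5a was -0.54 ± 0.03 in controls, where the 3 samples lay within a narrow range, and -0.48 ± 0.53 in knockouts (permutation test, exact p = 1, adjusted 1). For Kdm1b to Kdm1a the values were -2.64 ± 0.54 and -2.23 ± 0.24 (permutation test, exact p = 0.3, adjusted 0.533).

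A transcript ratio was taken as the summed level of the 5 demethylases over that of the methyltransferases Kmt2a, Kmt2b, Kmt2c, Kmt2d, Setd1a and Setd1b, per kb. It measures neither enzyme activity nor the mark itself. Controls 1 to 3 gave 0.572, 0.807 and 0.739, and knockouts 1 to 3 gave 0.809, 0.76 and 0.522. Control 1 and knockout 3 were the low samples, 1 of each genotype. As a log2 ratio the controls stood at -0.52 ± 0.26 and the knockouts at -0.55 ± 0.34 (permutation test, exact p = 0.9). With adjustment over the 4 summed measures all 4 p-values were 1. Of 10 tested genes listed as H3K4 methyltransferases, with a median log2 fold change of 0.15, 0 passed in edgeR, 0 had an unadjusted p under 0.05, and DESeq2 called 0. For all genes the unadjusted share in edgeR was 6.51% and the share called by DESeq2 1.9%. Kmt2e, a SET-domain relative of the MLL family, was higher in every knockout than in any control, where 6.39% of all genes were (184 ± 17.5 against 256 ± 86.8 CPM; edgeR adjusted p = 0.814). Prdm9, a meiotic methyltransferase gene, had 1.57 ± 1.12 against 4.70 ± 6.55 CPM (log2 fold change 1.58, edgeR adjusted p = 0.888), and the log2 fold change of Kmt2a was 0.21 (edgeR adjusted p = 0.897).

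No partner of KDM1A in the CoREST complex passed the test. Of 13 partners tested, 0 had an adjusted or unadjusted p under 0.05 in edgeR, DESeq2 called 0, and all 13 overlapped between genotypes, with a median log2 fold change of 0.01. Rcor1, the CoREST scaffold, stood at 87.5, 83.3 and 98.1 CPM in controls 1 to 3 and at 83.7, 82.8 and 103.6 CPM in knockouts 1 to 3. The member with the smallest p was Gse1, at 35.8 ± 6.66 against 54.3 ± 22.4 CPM (log2 fold change 0.60, SE 0.38, edgeR adjusted p = 0.844). Zmym3 (0.41) and Ctbp1 (-0.28) followed. Among 16 tested recruiters of KDM1A and subunits of the NuRD deacetylase complex, none passed, with 0 at an unadjusted p under 0.05 in edgeR and 0 called by DESeq2, and the median was -0.16. The smallest p were those of the fetal globin repressor gene Bcl11a (log2 fold change -0.34), Mta2 (0.36) and Rbbp7 (-0.32), each with an edgeR adjusted p of at least 0.844. Gfi1b had 37.6, 70.8 and 72.4 CPM in controls and 17.8, 32.4 and 64.5 CPM in knockouts, lower in the knockout of every litter, with groups that overlapped (log2 fold change -0.66, SE 0.49, edgeR adjusted p = 0.868). Rbbp7, Mta3 and Mbd3 of the same list were also lower in the knockout of every litter. The share of all genes with that trait was not counted. Gfi1 had a log2 fold change of 0.67 (edgeR adjusted p = 0.904). Rcor1, Gfi1b, Gfi1, Mta3 and Mbd3 were picked out after their values were seen.

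Of 4 tested genes around KDM1B, with a median log2 fold change of -0.22, 0 had an unadjusted p under 0.05 in edgeR and DESeq2 called 0. The shares of all genes were 6.51% and 1.9%. The H3K9 methyltransferase gene Ehmt1 was higher in every knockout than in any control, as were 6.39% of all genes. Ehmt1 had 33.5 ± 2.06 against 46.4 ± 7.13 CPM (log2 fold change 0.47, edgeR adjusted p = 0.824). Its partner Ehmt2 (log2 fold change -0.55) and Glyr1, whose product binds KDM1B (-0.33), overlapped between genotypes.

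Among genes of complexes that hold KDM5 proteins, none passed the threshold, and 3 of 21 tested had groups that did not overlap, a share near the 14.1% of all genes. The median log2 fold change was 0.12. Of the 21, 0 had an adjusted p under 0.05 in edgeR and DESeq2 called 0, against 0% and 1.9% of all genes. In edgeR 2 had an unadjusted p under 0.05 and were higher in the knockout, against 4.26% of all genes, and 1 was lower, against 2.24%. Pcgf6, a subunit of the non-canonical Polycomb complex in which KDM5C has been found, had 14.54, 19.5 and 13.5 CPM in controls 1 to 3 and 6.26, 5.32 and 1.94 CPM in knockouts 1 to 3. Every knockout lay below every control, as for 7.74% of all genes (log2 fold change -1.81, SE 0.63, edgeR adjusted p = 0.729, unadjusted p = 0.021). E2f6, of the same complex, was also lower in every knockout, at 51.1, 35.8 and 36.04 CPM in controls and 26.8, 33.0 and 8.14 CPM in knockouts (edgeR adjusted p = 0.833). Sin3a, the scaffold of the SIN3 deacetylase complex in which KDM5A occurs, had 113.5, 97.1 and 89.8 CPM in controls and 119, 167 and 203 CPM in knockouts, all above every control (log2 fold change 0.70, SE 0.26, edgeR adjusted p = 0.729, unadjusted p = 0.0247). Rb1, the retinoblastoma gene, had 50.9 ± 4.80 against 110.9 ± 75.5 CPM (edgeR adjusted p = 0.758), with groups that overlapped.

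The demethylases of other histone lysines gave a median log2 fold change of 0.03 over 17 tested genes, with 0 past the adjusted or unadjusted threshold in edgeR and 0 called by DESeq2. Kdm6a, described above, had the smallest p, followed by the H3K27 demethylase gene Kdm6b (log2 fold change 0.59, edgeR adjusted p = 0.811). The H3K9 and H3K36 demethylase gene Kdm4b was lower in every knockout than in any control, as were 7.74% of all genes. It had 7.82 ± 2.88 against 3.69 ± 1.07 CPM (log2 fold change -1.08, edgeR adjusted p = 0.855). The SET1/MLL core genes that partner DPY30 were Wdr5, Ash2l and Rbbp5, with log2 fold changes of -0.26, 0.11 and -0.09 (edgeR adjusted p of 0.94 to 0.983, 0 called by DESeq2, 0 at an unadjusted p under 0.05). For both lists, the shares over all genes were 6.51% at an unadjusted p under 0.05 in edgeR and 1.9% called by DESeq2.

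Genes whose pattern over the 6 samples was most like each member were ranked by the root mean square difference of centred log2 CPM, among 8512 genes with a mean of at least 5 CPM. Kdm1a was nearest to Svil (0.10), Ints9 (0.11) and the H3K4 methyltransferase gene Setd1b (0.12), where the median gene differed by 0.63. Kdm1b was nearest to Lsp1 (0.11), Kif3b (0.18) and Gstz1 (0.18), against a median of 0.87. Kdm5a was nearest to Vps54 (0.05), Fzd7 (0.09) and U2surp (0.10), against 0.59. The values for Kdm5b were 0.13 for Rnf41, 0.17 for Rint1 and 0.18 for Naa16, against 0.85, and those for Kdm5c were 0.10 for Alg11, Foxm1 and Dynlrb1, against 0.62. No member was among the 3 nearest genes of another. The smallest difference between 2 members was that of Kdm1a and Kdm5a, at 0.24, which put Kdm5a in place 165 of the genes near Kdm1a. By place, the closest was Kdm1a, in place 80 of the genes near Kdm1b, at a difference of 0.39. The pair Kdm5b and Kdm5c differed by 0.75, above the median for genes around Kdm5c and below that for genes around Kdm5b. The measure is a description over 6 samples, and all genes compared in it come from the same 6 libraries with the same scaling factors.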

How the data were processed

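Poly(A) RNA of sorted fetal liver HSCs was sequenced in 3 control and 3 Dpy30 knockout samples. The authors deposited raw whole-number counts per gene symbol, 1 list per sample. The submitters' processing notes name CASAVA 1.8.4, TopHat2, Picard 1.126, HTSeq 0.6.0, DESeq 3.0, bedtools 2.17.0 and build mm10, with no role or order. Annotation and strandedness are not given in the sources used here. The 5 tallies of reads given to no gene, 41.0% to 51.0% of reads, were left out.

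The counts were tested with edgeR 4.0.16 (R 4.3.3): filterByExpr, TMM scaling, glmQLFit and glmQLFTest without a litter term, and Benjamini-Hochberg adjustment over all 13646 genes tested, at a threshold of 0.05. The SE was obtained by dividing the log2 fold change by the root of its F statistic. Log2 CPM has a prior count of 2. Single values were compared by two-sided exact permutation tests. DESeq2 1.42.0 and limma-voom (limma 3.58.1) were alternatives. Gene lengths and positions are from GENCODE M21 (GRCm38, the build mm10 names), which matched 91.4% of symbols. The procedure was run on simulated counts with changes larger than that of any member, the same spread for every gene and no litter effect. That run does not show whether changes as small as the members' could be found.

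Genotypes were grouped by label, and replicate numbers are litters, which pair the samples. Deviations from genotype means correlated at -0.02, -0.08 and 0.00 in litters 1 to 3. P-values set the difference between genotypes against the spread between these samples, which edgeR estimates partly from other genes. The main fit did not use the pairing by litter. PCR copies could not be told from separate molecules. No 2 libraries agreed within counting noise.

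The members and lists were chosen with earlier results of these data known. Named genes are the members, Dpy30, the 3 tested genes of each list with the smallest p and, for each member, the 3 genes nearest in pattern. Others are named where their groups did not overlap or where stated.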

Additional observations from a re-analysis of the deposited data

How the results depend on the processing

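With litter as a replicate block, the log2 fold changes were 0.22 for Kdm1a, 0.61 for Kdm1b, 0.02 for Kdm5a, -0.59 for Kdm5b, 0.08 for Kdm5c and -1.62 for Dpy30, and the block changed no call in edgeR. Within-litter means differed by -0.29 CPM per kb for KDM5, 2.66 for KDM1, -0.03 for the log2 ratio of demethylases to methyltransferases and -4.67 percentage points for the Kdm5b share, the same as without the block (exact sign-flip p of at least 0.5, 0.25 being the smallest possible). No alternative gave a member an adjusted p under 0.05. The count of all genes past the threshold was 0 in edgeR, 272 in DESeq2, which tested the 14327 genes left by its own filter, 396 of 13232 in DESeq2 with the block (added after seeing the data), 1 without a filter on low counts and 1 with at least 10 counts in every sample. It ranged from 0 to 0 when 1 sample was left out. Dpy30 passed in DESeq2 (-1.52) and in DESeq2 with the block (-1.60). Upper-quartile scaling turned Kdm5a to -0.086 and Kdm5c to -0.0050, while the median of all genes moved to -0.10, so that both stayed above it. Scaling by library size only turned the difference in summed KDM5 level to 3.56 CPM per kb and moved the median log2 fold change of all genes to 0.23. With the main scaling method, the KDM5 difference was also above 0 without control 2 (1.70 CPM per kb) and without knockout 3 (2.27 CPM per kb). Leaving out 1 sample at a time gave -0.014 to 0.34 for Kdm1a, 0.10 to 0.75 for Kdm1b, -0.083 to 0.16 for Kdm5a, -1.02 to -0.07 for Kdm5b, -0.14 to 0.29 for Kdm5c and -1.94 to -1.31 for Dpy30. The differences ranged from -1.83 to 2.27 CPM per kb for KDM5, from 0.0549 to 4.22 for KDM1, from -0.17 to 0.17 for the log2 ratio and from -8.93 to -2.11 percentage points for the Kdm5b share. Control 1 alone decided most of the KDM1 difference. The members had at least 132 counts in every sample.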
